A study of Homo sapiens with 2 samples.

Results

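The regions described here are the broadest stretches of accessible chromatin in WIBR3, a line of human embryonic stem cells, selected on their width in ATAC-seq peak lists: each has 1500 bp or more. ATAC-seq uses a transposase that cuts open DNA and attaches adapters for sequencing. One library came from hTBLCs, the study's totipotent blastomere-like cells obtained by spliceosomal repression, and 1 came from primed cells, the conventional cultured state of these cells, labelled Primed. The labels give WIBR3 and human embryonic stem cell for both libraries, and name neither the agent nor the time of the repression. There was no replicate of either library, so no test across conditions was made and every interval covers counting error only. Peaks that overlapped or touched were merged within each list (chromosomes 1 to 22 and X), and merged regions of 1500 bp or more were kept. They numbered 1498 of 250859 regions in hTBLC and 1740 of 242009 in Primed, 3238 of 492868 in all. Joined across the lists, they made up 2452 of 336224 loci, a locus being a stretch of overlapping regions of either list.

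Most open regions are short gaps in the nucleosome array, such as the gap at an active promoter or an enhancer. A broad region can hold several such gaps in a row, with no return to background that the caller sees between them. Nucleosome positions were not analysed here. Promoters in CpG islands, stretches rich in the dinucleotide CG, are the best known kind. The local maxima of signal inside a region are called summits.

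The promoters of 5 genes show the range of sequence behind these regions. They are the 250 bases before a RefSeq start on the gene's strand (table of build GRCh38.p14), read 5′ to 3′, with each CG dinucleotide in capitals. NALF1 held the widest region of both lists (chr13:107867497-107867746, minus strand). NODAL (chr10:70441682-70441931, minus strand), FGF2 (chr4:122826581-122826830, plus strand) and PHACTR1 (chr6:13013304-13013553, plus strand) are loci of greater width and lower signal in hTBLC, and H2AC6 (chr6:26123922-26124171, plus strand) shares its region with the divergent histone gene H2BC4.
NALF1: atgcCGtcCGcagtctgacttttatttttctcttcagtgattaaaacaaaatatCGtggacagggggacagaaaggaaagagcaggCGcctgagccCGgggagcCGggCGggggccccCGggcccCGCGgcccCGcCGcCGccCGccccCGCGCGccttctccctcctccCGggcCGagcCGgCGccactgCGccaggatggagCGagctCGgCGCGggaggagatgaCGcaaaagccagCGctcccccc
NODAL: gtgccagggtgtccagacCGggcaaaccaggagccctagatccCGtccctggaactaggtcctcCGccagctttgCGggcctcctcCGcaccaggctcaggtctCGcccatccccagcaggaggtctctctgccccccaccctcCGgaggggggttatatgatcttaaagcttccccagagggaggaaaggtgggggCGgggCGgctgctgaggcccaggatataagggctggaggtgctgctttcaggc
FGF2: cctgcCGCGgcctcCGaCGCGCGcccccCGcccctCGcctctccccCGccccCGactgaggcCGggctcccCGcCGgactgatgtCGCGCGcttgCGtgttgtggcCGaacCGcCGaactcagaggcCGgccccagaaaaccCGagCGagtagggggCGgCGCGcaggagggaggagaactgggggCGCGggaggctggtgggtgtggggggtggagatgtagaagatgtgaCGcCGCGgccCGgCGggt
PHACTR1: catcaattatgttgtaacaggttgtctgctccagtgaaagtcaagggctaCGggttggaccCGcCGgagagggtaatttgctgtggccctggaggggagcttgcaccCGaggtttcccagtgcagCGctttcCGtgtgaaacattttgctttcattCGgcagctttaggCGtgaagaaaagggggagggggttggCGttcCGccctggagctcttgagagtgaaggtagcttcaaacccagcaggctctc
H2AC6: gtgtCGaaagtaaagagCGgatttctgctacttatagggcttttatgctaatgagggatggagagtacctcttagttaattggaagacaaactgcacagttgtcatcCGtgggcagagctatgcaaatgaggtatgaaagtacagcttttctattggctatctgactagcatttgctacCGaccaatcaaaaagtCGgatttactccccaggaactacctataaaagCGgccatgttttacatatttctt
NALF1 has 28 CG dinucleotides in these 250 bases and FGF2 has 33. NODAL has 9, PHACTR1 has 10 and H2AC6 has 6. The first 4 hold GGGCGG on either strand, the core of the GC box bound by SP1, and H2AC6 holds CCAAT and TATAAA instead. These letters describe the sequence and locate no bound factor.

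The width chose these regions, so counts and widths are descriptions. They made up 0.597% of the hTBLC regions and 0.719% of the Primed regions, and 2.45% and 2.89% of the covered sequence. The median width was 1655 bp in hTBLC (quartiles 1565 and 1820) and 1660 bp in Primed (quartiles 1573 and 1816), and the widest had 2809 bp in hTBLC and 2837 bp in Primed. Regions of 2000 bp or more numbered 145 in hTBLC and 174 in Primed. No gap in the distribution lies at the threshold. Just inside it, 293 hTBLC and 298 Primed regions had 1500 to 1549 bp, with median pileups of 87 and 80.5, and just outside it 352 hTBLC and 378 Primed regions had 1450 to 1499 bp, with median pileups of 95 and 76. The pileup is the number of reads or fragments stacked at a summit, computed from each peak's fold and −log10 p; in bulk cells, fewer cells with the site open and less signal per cell cannot be told apart. At the strongest summit of a broad region its median was 96 in hTBLC and 81 in Primed, against 16 and 17 in all other regions. By −log10 p, 61.8% of the hTBLC and 50.6% of the Primed broad regions lay in the strongest 10% of their list.

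The libraries differ in depth and list length. The most frequent local background was 1.96 in hTBLC and 1.79 in Primed, and their ratio of 1.09 was used to scale pileup ratios. The lowest deposited −log10 p was 2.83 in hTBLC and 2.0 in Primed. Ranks without a line numbered 327 in hTBLC and 252 in Primed, so a region or summit absent from a list may be one of them. As a check of the cells, regions at the starts of marker genes were counted. For markers without a listed start, such as POU5F1, COL3A1 and THY1, a region at either gene end counted. Of 12 embryonic stem cell markers, 11 in hTBLC and 12 in Primed had a region, with summed pileups of 751 and 922. POU5F1 had none in the hTBLC list and 1 of 214 bp in the Primed list, at or near an end of the gene. Of 10 fibroblast markers, 9 in hTBLC and 7 in Primed had a region, with summed pileups of 494 and 379. The sums of both marker sets were not scaled by depth. Single fibroblast markers went both ways: VIM had 136 in hTBLC and 69 in Primed, and COL1A1 had 68 and 90. THY1 was without a region in both lists, and COL3A1 and POSTN were without one in Primed. The part of feeder or stromal cells in the results was not tested.

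Broad regions lay mainly at the starts of protein-coding genes. In hTBLC, 1000 of 1498 held such a start or lay within 1 kb of one, 66.8% (Wilson 95% interval 64.3 to 69.1), and in Primed 1125 of 1740, 64.7% (62.4 to 66.9). Among all regions the share was 6.89% in hTBLC and 7.26% in Primed, and at widths of 1000 to 1499 bp it was 43.7% in each. A further 12.3% of the hTBLC and 13.2% of the Primed broad regions lay at an end of a gene whose strand the start table does not give, which can be the start or the 3′ end. Starts of long noncoding RNA genes took 4.21% of the hTBLC and 3.28% of the Primed broad regions. Gene bodies, which hold 52.7% of all hTBLC and 54.6% of all Primed regions, held 8.61% and 9.94% of the broad ones, and intergenic DNA held 7.48% and 7.18%. Known 3′ ends had 9 broad regions in hTBLC, 0.60% (0.32 to 1.14), and 30 in Primed, 1.72% (1.21 to 2.45), against 1.35% of all hTBLC and 1.53% of all Primed regions. Those of Primed include the 3′ ends of L1TD1 and WNT3A, whose pileups are given with the lowest ratios.

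**Figure D1:**
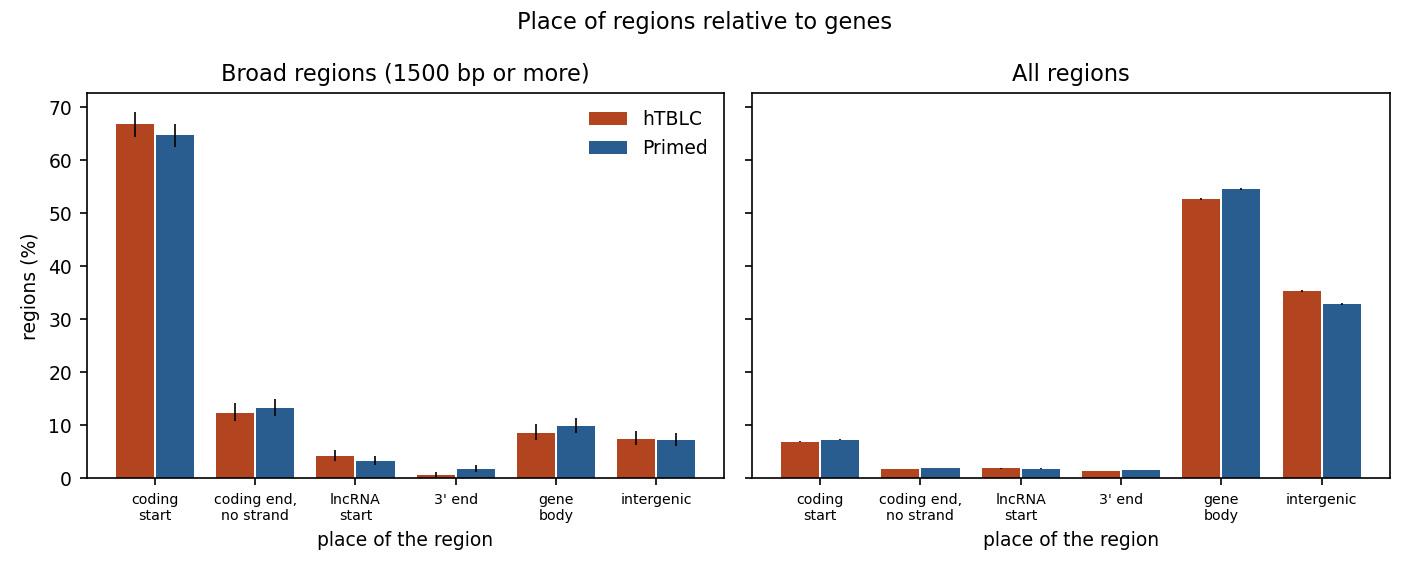
Share of regions, in percent, by place relative to genes, for broad regions (left panel) and all regions (right panel), with hTBLC left of Primed in each pair and Wilson 95% intervals. Coding starts take 66.8% of the hTBLC and 64.7% of the Primed broad regions, while gene bodies and intergenic DNA take most of all regions.

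Around a known start the open stretch was longer on the transcribed side. Of 978 hTBLC and 1096 Primed broad regions with a start inside, 63.9% (60.8 to 66.9) and 62.0% (59.0 to 64.8) reached further downstream than upstream. The median reach was 729 bp upstream and 969.5 bp downstream in hTBLC, and 753 bp and 965 bp in Primed. The strongest summit lay a median of 61 bp upstream of the start in hTBLC and 67 bp upstream in Primed. Starts on both strands, from coding or long noncoding genes, were held by 31.8% (29.0 to 34.8) of these hTBLC regions and 31.3% (28.6 to 34.1) of these Primed regions, against 15.98% and 15.7% of the start-holding regions of 300 to 999 bp. A wider region has more room for a second start, and the part of width alone in that difference was not tested. Starts of 2 or more coding genes lay in 104 hTBLC and 111 Primed regions. NDRG2 with ARHGEF40, NAA50 with ATP6V1A and DCAF6 with MPC2 are pairs among the 10 widest hTBLC regions.

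The promoters in broad regions were rich in G and C. The median base composition of the 250 bases before a start was 69.2% GC for starts broad in hTBLC alone (n = 611 starts), 70.4% for Primed alone (n = 759) and 70.4% for both (n = 849). It was 64.8% for starts in narrower regions of both lists (n = 12247) and 50% for starts with no region in either (n = 6044). The ratio of observed to expected CG, which is low where methylation has eroded the dinucleotide, had medians of 0.83, 0.85 and 0.85 for hTBLC alone, Primed alone and both, against 0.81 in narrower regions and 0.26 without a region. The letters GGGCGG, searched on both strands, stood before 76.2% of starts in a broad region of either list, 66.7% of those in narrower regions and 53.7% of all 22131 starts. CCAAT, the box bound by NF-Y, stood before 26.2%, 35.4% and 32.7% of the same starts. TATAAA stood before 4.24%, 5.03% and 8.996% of them, and CACGTG, the E-box of MYC and USF factors, before 7.53%, 8.51% and 7.37%. No match says only that these letters are absent from this window. The letters GGGCGG become more frequent with GC content alone, and that part was not tested.

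For the 4159 protein-coding genes without a listed start, either gene end was taken as the start. Protein-coding genes with a start in or within 1 kb of a broad region numbered 1320 of 19970 in hTBLC, 6.61%, and 1507 in Primed, 7.55%. Both libraries had 753 of them, 567 were broad in hTBLC alone, 2.84% of all genes, and 754 in Primed alone, 3.78%. Either library had 2074, 10.4%. These genes were long: the median gene length was 56.3 kb for hTBLC alone, 49.2 kb for Primed alone and 79.9 kb for both, against 27.8 kb for genes with a narrower region in both lists and 8.93 kb for genes with none. MAML3, a co-activator of Notch signalling, NRG1, a ligand of ERBB receptors, and PTPRN2, a receptor-type phosphatase of secretory granules, each held 3 broad loci within their bounds. MAML3 had 3 of them broad in hTBLC and 1 in Primed. NRG1 and PTPRN2 each had 1 broad in hTBLC and 2 in Primed. MAML3 spans 437 kb, NRG1 1135 kb and PTPRN2 1049 kb, against a median of 62.3 kb for genes broad in either library. A longer gene has more room for broad loci, and the part of length alone was not tested. No share over all genes is given, so these counts only describe the 3 genes.

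The widest region of both lists was at the start of NALF1, which encodes an auxiliary subunit of the NALCN sodium leak channel (chr13:107865737-107868587). It covered 2809 bp with 6 summits in hTBLC and 2837 bp with 9 summits in Primed, and its strongest pileups were 84 and 61, a scaled ratio of 1.26 (exact binomial 95% interval 0.894 to 1.78). The second in hTBLC lay inside SLC44A5, a choline transporter-like gene, 3353 bp from its start, with 2598 bp and 9 summits in hTBLC and 2522 bp and 8 summits in Primed. There the Primed list split the same stretch into several regions, of which the widest had 1620 bp. GNAQ, the Gq alpha subunit that couples receptors to phospholipase C, had 2489 bp in hTBLC and 2557 bp in Primed. ELF2, an ETS family transcription factor, had 2399 bp in hTBLC and 2475 bp in Primed. The loci of all 10 of the widest hTBLC regions covered at least 2181 bp in Primed.
The loci of the widest Primed regions covered less in hTBLC, by amounts that varied. Most loci of the widest hTBLC regions likewise covered less in Primed, and choosing the widest of one list favours such a difference. NALF1, GNAQ and DIPK2A, with 2484 bp in hTBLC and 2524 bp in Primed, were nearly equal. The largest differences among the widest Primed regions follow. SPON1, the matrix protein F-spondin, had 1751 bp in hTBLC and 2718 bp in Primed. TMPRSS2, a transmembrane serine protease, had 1080 bp with 3 summits in hTBLC and 2575 bp with 7 summits in Primed. CHST2, a sulfotransferase of glycans, had 2031 bp in hTBLC and 2647 bp in Primed, and a locus in a desert 2083999 bp from the start of the teneurin gene TENM3 had 2357 bp in hTBLC and 2651 bp in Primed.

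Broad in one list usually meant open in the other. Of the hTBLC regions, 52.5% (49.9 to 55.0) met a broad Primed region, and of the Primed regions 45.2% (42.8 to 47.5) met a broad hTBLC region. With a minimum of 1000 bp, 62.2% of hTBLC and 59.0% of Primed regions met one of that width. In loci, 712 were broad in hTBLC alone, 954 in Primed alone and 786 in both. Of the 705 loci broad in hTBLC alone with a Primed region, the widest Primed region had a median of 1155 bp (quartiles 926 and 1364), and of the 951 loci broad in Primed alone with an hTBLC region, the widest hTBLC region had a median of 1153 bp (quartiles 901 and 1358.5). Counterparts of 1000 to 1499 bp made up 67.7% and 66.1% of these. In 207 of the 705 and 226 of the 951 the other list still covered 1500 bp or more, but in several regions. So most loci broad in one list alone held an open region of 1000 bp or more in the other.

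Covered width was compared at the 2442 loci with a region in both lists. The median log2 ratio of hTBLC to Primed was −0.028 (quartiles −0.22 and 0.12). At least 1.5-fold wider in hTBLC were 87 loci, 3.56%, against 12.8% of all 147730 loci in both lists and 9.36% of loci of 1000 to 1499 bp. At least 1.5-fold wider in Primed were 173 loci, 7.08%, against 14.2% and 11%. The rule limits these counts, since a locus broad in one list can only be wider there or nearly equal. Among the 786 loci broad in both, 0 were that much wider in hTBLC and 2 in Primed. By place, the share at least 1.5-fold wider in hTBLC was 1.62% and the share at least 1.5-fold wider in Primed 4.22% of the 1539 loci at coding starts. In the 254 loci in gene bodies the shares were 9.45% and 12.6%, and in the 197 intergenic loci 10.7% and 15.2%. The 1000 to 1499 bp loci differed by place too, with 2.61% and 4.96% at coding starts, 14.6% and 18.1% in gene bodies and 17.0% and 13.4% in intergenic DNA.

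**Figure D2:**
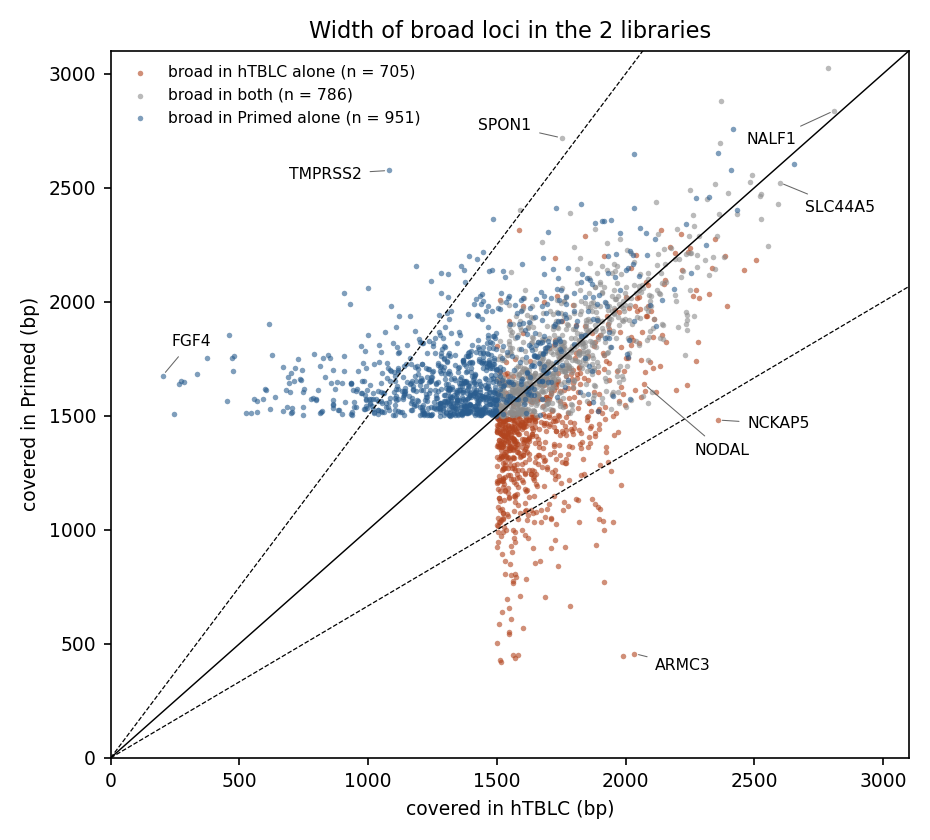
Covered width in hTBLC (x axis, bp) against Primed (y axis, bp) at the 2442 broad loci with a region in both lists, coloured by the library in which a region reached 1500 bp, with the solid line at equal width and dashed lines at 1.5-fold. The empty lower left corner comes from the 1500 bp rule; ARMC3 covers 2034 bp in hTBLC and 457 bp in Primed, and FGF4 covers 202 bp in hTBLC and 1676 bp in Primed.

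The 10 largest gains of width in hTBLC were all away from known starts. The largest lay 32490 bp from the start of ARMC3, an armadillo repeat gene, with 2034 bp and 5 summits in hTBLC and 457 bp and 1 summit in Primed (chr10:22893530-22895563). A locus 30157 bp from the 3′ end of PDZRN4 had 1989 bp in hTBLC and 447 bp in Primed. One near LRRC4C, which encodes the netrin-G1 ligand of synapses, had 1570 bp in hTBLC and 437 bp in Primed, with pileups of 31 and 9, a ratio of 3.15 (1.46 to 7.51). Signal was low at most of them: ARMC3 had pileups of 21 in hTBLC and 11 in Primed and PDZRN4 had 18 and 10, with intervals of the ratio that include 1 (0.804 to 4.00 and 0.719 to 3.99).

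The 10 largest losses of width included loci at FGF4, CDH1 and ONECUT1. FGF4, an FGF ligand of early embryonic cells, had 202 bp with 1 summit in hTBLC and 1676 bp with 6 summits in Primed at one end of the gene (chr11:69774198-69775916). Its pileups were low, 12 in hTBLC and 20 in Primed, a ratio of 0.548 (0.244 to 1.18). A locus inside CDH1, the gene of E-cadherin, had 376 bp in hTBLC and 1755 bp in Primed with pileups of 10 and 29, a ratio of 0.315 (0.137 to 0.665). The locus with the largest change in signal lay 8621 bp from the 3′ end of ONECUT1, a homeobox factor of liver, pancreas and neurons (chr15:52744752-52746432). It had 337 bp with 1 summit in hTBLC and 1681 bp with 5 summits in Primed, and pileups of 8 and 116, a ratio of 0.063 (0.0266 to 0.128). MMP24, a membrane-type matrix metalloproteinase, was the one member of these 10 with a known start of a protein-coding gene in it, with 616 bp in hTBLC and 1901 bp in Primed.
The other losses were TMPRSS2, LOC124905375 in ABR, PTPRN2, HIVEP1, ADGRV1 and ADRA1A, each with 1080 bp or less in hTBLC and 1639 bp or more in Primed.

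Pileups at the strongest summit were compared at the same 2442 loci. The median log2 ratio was 0.042, with 279 loci at least 1.5-fold higher in hTBLC, 11.4%, against 16.9% of all loci in both lists, and 291 at least 1.5-fold lower, 11.9%, against 26.7%. At loci of 1000 to 1499 bp these shares were 16% and 18.3%. Without scaling by depth the counts were 418 higher and 220 lower, and every log2 ratio was 0.13 higher; with the sum over all summits of a locus they were 242 and 423. Lower was thus the more frequent direction as scaled and with the sum, and higher was without scaling. Width and pileup did not always move together at broad loci. By 1.5-fold or more, 26 loci were wider and higher in hTBLC, 58 narrower and lower, 11 wider and lower, and 17 narrower and higher. A further 50 were wider and 98 narrower with the pileup within 1.5-fold, and 1724 (70.6%) passed neither limit. No such counts over all loci are given, so these numbers only describe the broad loci. Across loci, Pearson's r of the log2 width ratio with the log2 pileup ratio was 0.24 at broad loci (n = 2442) and 0.50 at all loci in both lists (n = 147730). It was 0.48 at loci of 1000 to 1499 bp (n = 12687) and 0.03 at loci broad in both (n = 786). The rule limits the width ratio at broad loci, so their lower r cannot be read as a trait of these loci. Loci share the same 2 libraries, and width and pileup come from the same reads.

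**Figure D3:**
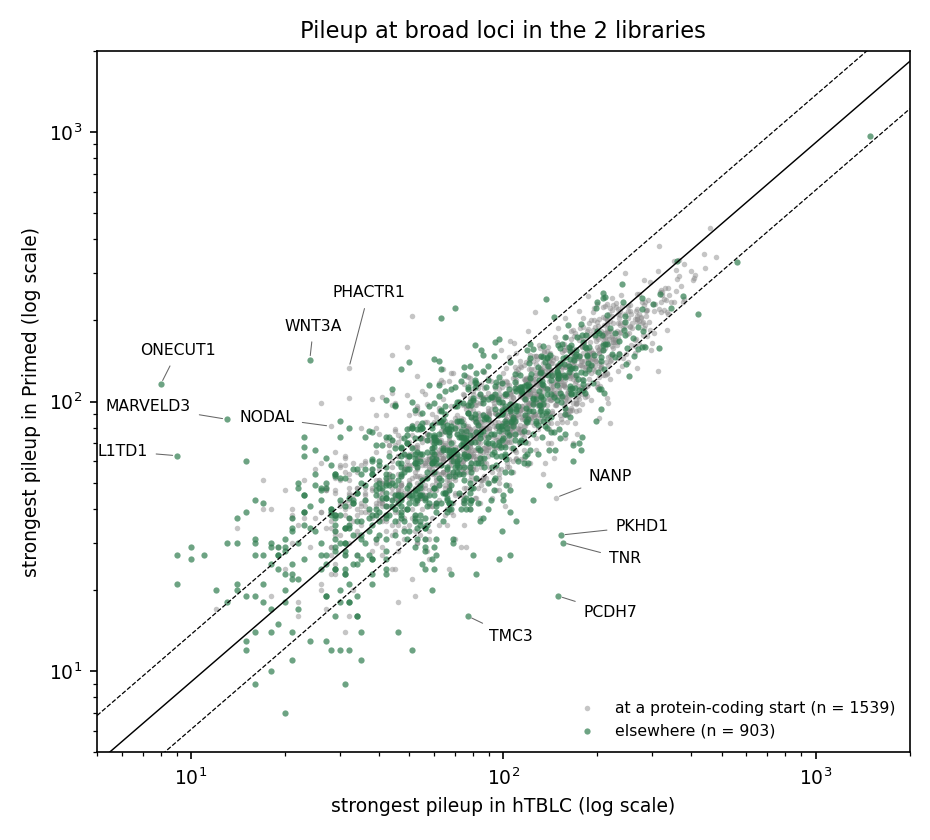
Strongest pileup in hTBLC (x axis, log scale) against Primed (y axis, log scale) at the 2442 broad loci with a region in both lists, in grey for coding starts and green elsewhere, with the solid line at equal signal after scaling by depth and dashed lines at 1.5-fold. ONECUT1 lies far above the lines with pileups of 8 in hTBLC and 116 in Primed, and the PCDH7 locus far below with 150 in hTBLC and 19 in Primed.

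The 5 highest ratios were all distal. A locus 849269 bp from the 3′ end of PCDH7, a protocadherin, had pileups of 150 in hTBLC and 19 in Primed, a ratio of 7.21 (4.46 to 12.3), over 1553 bp and 610 bp (chr4:31996069-31997621). A second PCDH7 locus, 382830 bp from the 3′ end, was among the 10 gains of width, with 28 and 12. A locus inside TNR, the gene of the brain matrix protein tenascin-R, had pileups of 155 in hTBLC and 30 in Primed, a ratio of 4.72 (3.18 to 7.23), while the covered width hardly differed at 1643 bp and 1591 bp. TMC3, PKHD1 and TAFA5 were the nearest genes of the other loci, with ratios of 4.40, 4.37 and 3.88.
Among coding starts the highest ratio was at NANP, a phosphatase of sialic acid synthesis, with 147 in hTBLC and 44 in Primed, 3.05 (2.17 to 4.38). EZH2, the methyltransferase of histone H3 lysine 27, had 136 and 59, a ratio of 2.11 (1.54 to 2.91), and both libraries were broad there, with 1660 bp in hTBLC and 1824 bp in Primed. NANP and EZH2 were picked after their values were seen.

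The lowest ratios were mostly at or near gene ends. L1TD1, an RNA-binding protein of human pluripotent cells, had a locus at its 3′ end with pileups of 9 in hTBLC and 63 in Primed, a ratio of 0.130 (0.057 to 0.264), and 452 bp against 1563 bp (chr1:62212397-62213959). At the 3′ end of WNT3A, a ligand of canonical WNT signalling, the pileups were 24 in hTBLC and 143 in Primed, a ratio of 0.153 (0.0951 to 0.237), and the widths 1208 bp and 1726 bp. MARVELD3, a tight junction protein, had 13 in hTBLC and 86 in Primed, a ratio of 0.138 (0.0707 to 0.249), at one end of the gene. PHACTR1, which binds actin and protein phosphatase 1, was the lowest among coding starts, with 32 in hTBLC and 133 in Primed, a ratio of 0.220 (0.144 to 0.325). It covered more in hTBLC, 1856 bp with 5 summits against 1554 bp with 3 summits in Primed. Over all 1539 broad loci at coding starts, 149 (9.68%) were at least 1.5-fold higher and 130 (8.45%) at least 1.5-fold lower in hTBLC. At coding starts of 1000 to 1499 bp these shares were 9.93% and 10.1%. The low ratios named here are thus not the main direction at coding starts. Other starts of low ratio, picked after their values were seen, were broad in hTBLC too. MAP7, a microtubule-associated protein of epithelia, had 51 in hTBLC and 208 in Primed, 0.224 (0.162 to 0.305), with 1573 bp and 1710 bp. TUBA4A, an alpha-tubulin, had 26 and 99, 0.240 (0.149 to 0.373). GALNT3, an enzyme of O-glycosylation, had 49 in hTBLC and 159 in Primed, 0.281 (0.200 to 0.390), with 1878 bp and 1633 bp. OCLN, the tight junction protein occludin, had 53 and 124, 0.390 (0.277 to 0.543), with 1655 bp and 1567 bp. At MAP7, GALNT3 and OCLN the pileup differed by more than 1.5-fold while the covered width did not.

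Few broad regions had nothing opposite them. A region in both lists was held by 2442 of the 2452 broad loci, against 147730 of all 336224 loci. A wider region has more room to meet one of the other list, and the part of width alone was not tested. Of the hTBLC regions, 7 met no Primed region. One lay at the 3′ end of PSMB5, a proteasome subunit, and one inside TASP1. The other 5 were intergenic, between 6833 bp (FMN2) and 716593 bp (RGMB) from the nearest known start or end of a coding gene. The 7 covered 1508 to 1658 bp, with strongest pileups of 15 to 84. Of the Primed regions, 3 met no hTBLC region: one 55498 bp from ETAA1 with 1642 bp and a pileup of 117, one 3481 bp beyond CRIPTO, a co-receptor of NODAL, with 1571 bp and 44, and one at the 3′ end of ANOS1, the gene of anosmin, with 1501 bp and 21. A line absent from a list would give the same picture.

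Summits inside the broad regions were counted as distinct positions. A region had 4.03 ± 0.99 summits in hTBLC (SD, n = 1498 regions) and 4.15 ± 0.99 in Primed (SD, n = 1740 regions), and 88.8% and 89.0% had 3 to 5. Regions of 1000 to 1499 bp had a mean of 2.60 in hTBLC and 2.68 in Primed, and shorter ones 1.12 and 1.14. With summits below a −log10 q of 10 left out, the means for broad regions were 2.69 in hTBLC and 2.63 in Primed, the other order. Neighbouring summits lay a median of 371 bp apart in hTBLC (quartiles 298 and 489) and 370 bp apart in Primed (quartiles 298 and 484). The second strongest summit reached a median of 67.6% of the strongest pileup in hTBLC and 67.9% in Primed. The most summits, 9, were at SLC44A5 in hTBLC and at NALF1 in Primed. NCKAP5, whose product binds NCK adaptors, had a locus deep in the gene with 8 summits and 2359 bp in hTBLC against 4 summits and 1481 bp in Primed. RELN, the gene of the matrix protein reelin, had 6 summits in hTBLC and 8 in Primed.
At the 786 loci broad in both, hTBLC had more summits in 198, Primed in 269, and the numbers were equal in 319. The positions largely coincided: 69.8% of the hTBLC summits and 67.6% of the Primed summits lay within 50 bp of a summit of the other list.

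**Figure D4:**
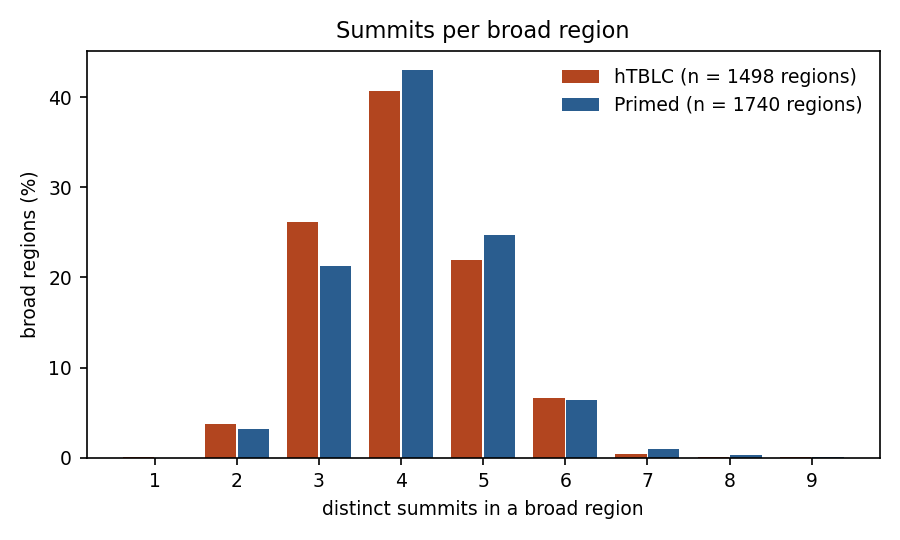
Share of broad regions, in percent, by the number of distinct summits, with hTBLC left of Primed in each pair. Regions with 4 summits are the most frequent in each library, 40.7% in hTBLC and 43.0% in Primed.

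Gene lists of cell state and of basic functions were counted at the starts, beside the 6.61% of all coding genes in hTBLC and 7.55% in Primed. Where no start is listed, as for SOX17, either gene end was used. Unless covered width is stated, the width of a list gene is that of the widest region at its start. A locus split into several regions can cover more. Replication-dependent histone genes, whose messages are made in S phase, had 8 of 74 at a broad region in hTBLC, 10.8% (5.58 to 19.9), and 1 of 74 in Primed, 1.35% (0.239 to 7.27). They share regions, so the 8 genes rest on 5 regions. Over the 60 histone genes open in both lists, 8 had a start region at least 1.5-fold wider in hTBLC and 6 one at least 1.5-fold wider in Primed, against 7.6% and 10.6% of coding genes open in both. The median width of open histone starts was 887.5 bp in hTBLC (n = 60) and 875.5 bp in Primed (n = 62). H2AC6 and H2BC4 shared one of 1684 bp in hTBLC and 1461 bp in Primed, with pileups of 119 and 86, a ratio of 1.26 (0.950 to 1.69). H1-4 and H2BC5 shared one of 1561 bp in hTBLC. The Primed list had 1108 bp at H2BC5 and 575 bp at H1-4, in separate regions. H2BC18 and H3C13 shared one of 1639 bp in hTBLC and 918 bp in Primed, H4C3 had 1671 bp and 1085 bp, and the linker histone gene H1-2 was broad in both with 1689 bp and 1665 bp. Histone genes are close copies, so reads may be shared between them.

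Of 24 core pluripotency genes, 3 were broad in hTBLC and 3 in Primed. SOX2, which forms a pair with POU5F1 on DNA, was broad in both with 1596 bp in hTBLC and 1569 bp in Primed, and its pileups were 85 and 116, a ratio of 0.669 (0.4998 to 0.893). FGF2, the growth factor of primed culture, covered 2108 bp in hTBLC and 1923 bp in Primed, with pileups of 62 and 117, a ratio of 0.484 (0.350 to 0.664). NODAL, the TGF-beta ligand that holds primed cells in their state, covered 2071 bp in hTBLC and 1639 bp in Primed, with pileups of 28 and 81, a ratio of 0.316 (0.198 to 0.491). SOX2, FGF2 and NODAL had lower pileups in hTBLC while the open stretch was as long or longer there. They are the 3 genes broad in hTBLC, a choice that favours a longer stretch there. FGF4 was broad in Primed alone, and its locus covered 202 bp in hTBLC and 1676 bp in Primed. Of the 20 list genes open in both, 2 had a start region at least 1.5-fold wider in hTBLC and 4 one at least 1.5-fold wider in Primed. Over all coding genes open in both these shares were 7.6% and 10.6%. Over the 20 genes of this list open in both, the median log2 pileup ratio was −0.61, with 4 at least 1.5-fold higher and 10 at least 1.5-fold lower in hTBLC. Over all 15587 such coding genes the median was 0.019, with 11.2% higher and 14.4% lower. The 14 trophectoderm genes open in both also had a median of −0.61, with 3 higher and 8 lower.
Of 20 primed-state markers, ZIC5 was broad in both, with 1764 bp in hTBLC and 1793 bp in Primed, and the surface glycoprotein gene CD24 in hTBLC alone, with 1696 bp and 1274 bp. None of 22 naive markers, 36 genes of the 8-cell stage, 39 HOX genes, 20 trophectoderm genes or 16 neural genes was broad in either library. The widest of each list were TFCP2L1, a naive-state factor, with 1392 bp in hTBLC and 1233 bp in Primed, SLC34A2, a phosphate transporter in the 8-cell list, with 1371 bp and 1357 bp, HOXD1 with 693 bp and 1284 bp, HAND1, a trophoblast and heart factor, with 1126 bp and 516 bp, and PAX6, the eye and forebrain factor, with 1237 bp and 1193 bp.
Of 106 developmental transcription factors, 4 were broad in hTBLC and 3 in Primed. SOX5 (1816 bp in hTBLC, 1047 bp in Primed) and LHX4 (1612 bp, 850 bp) were broad in hTBLC alone. SOX17, the endoderm factor, was broad in Primed alone, with widest single regions of 709 bp in hTBLC and 2108 bp in Primed. Its pileups were nearly equal, 47 and 44. The locus was not among the 10 largest losses of covered width, so the widest region gives only part of its width in hTBLC.

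**Figure D5:**
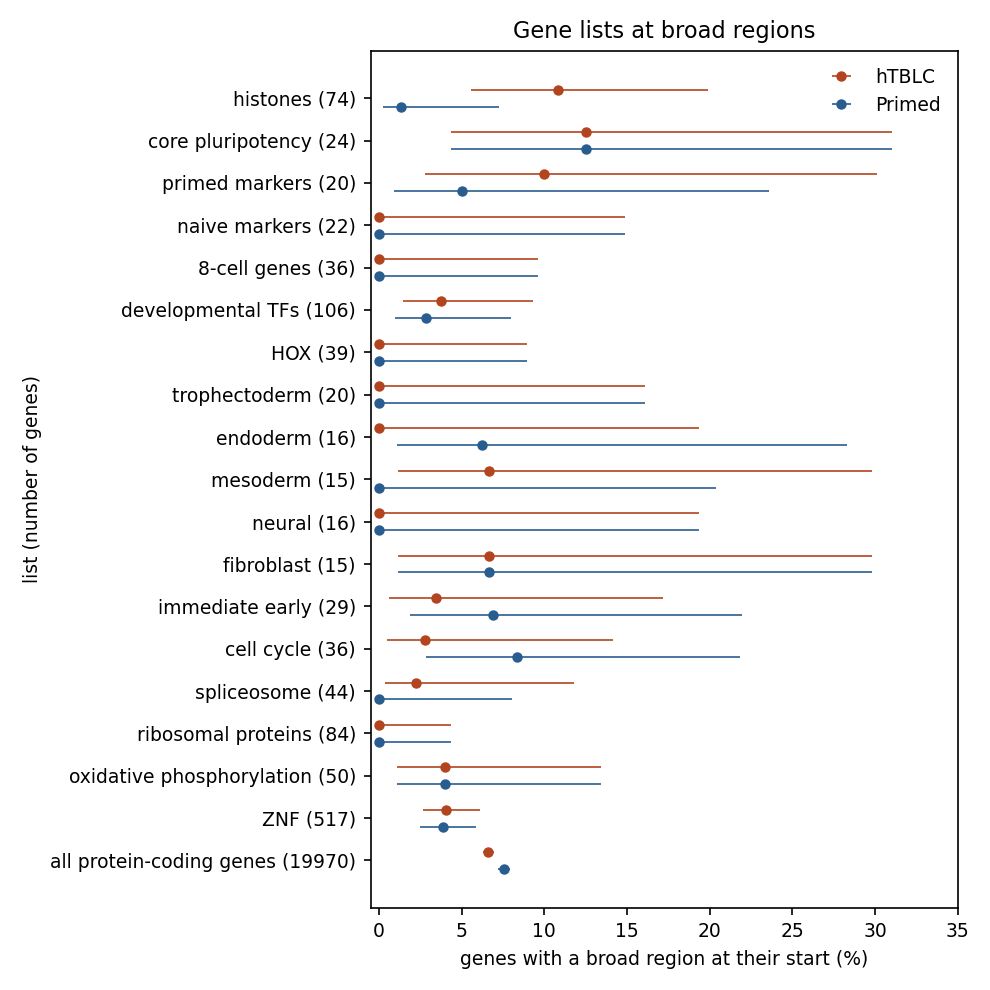
Share of the genes of each list with a broad region at their start, or at either gene end where no start is listed. Shares are in percent with Wilson 95% intervals, hTBLC above Primed in each pair and all coding genes in the lowest row. Histone genes have 10.8% in hTBLC and 1.35% in Primed, and ribosomal protein, HOX, naive, 8-cell, trophectoderm and neural lists have 0 in each.

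Other list genes were broad in one library alone. KDR, the VEGF receptor of mesoderm and endothelium, had 1668 bp in hTBLC and 861 bp in Primed, with pileups of 78 and 68. TWIST1, a mesenchymal factor, had 1649 bp and 767 bp, with 75 and 41. COL1A2, a chain of type I collagen, had 1135 bp in hTBLC and 2456 bp in Primed as single regions, but the locus covered 2272 bp and 2456 bp. Among 29 immediate early genes, CCN2, a target of YAP, had 1737 bp in hTBLC and 614 bp in Primed as widest regions, with pileups of 232 and 221, and its locus covered 1737 bp and 1650 bp. EGR1 (1124 bp in hTBLC, 1816 bp in Primed) and DUSP1 (1136 bp, 2042 bp) were broad in Primed alone, at pileup ratios of 1.03 (0.838 to 1.26) and 0.985 (0.690 to 1.41).
The 84 ribosomal protein genes, paralogues such as RPL3L and RPL10L included, had 0 broad regions in each library. Of them, 82 in hTBLC and 83 in Primed were open at their start. The widest was RPL7 with 1413 bp in hTBLC and 1175 bp in Primed. Of 44 spliceosome genes, the SF3b subunit gene SF3B5 was the only one broad, in hTBLC, with 1544 bp against 910 bp and pileups of 323 and 248, a ratio of 1.19 (1.005 to 1.41). Of 36 cell cycle genes, CDK6 was broad in both, and CDK2 and the tumour suppressor gene CDKN2A in Primed alone. Of 50 oxidative phosphorylation genes, SDHA was broad in both, COX4I1 in hTBLC alone and ATP5F1C in Primed alone. Of 517 ZNF genes, 21 (4.06%) were broad in hTBLC and 20 (3.87%) in Primed.

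Hairpins of 14 of 1558 microRNAs lay in broad loci. The share of hairpins in regions of any width is not given, so this count is only a description. The tumour-suppressive MIRLET7I had 1557 bp in hTBLC and 1613 bp in Primed. MIR1915 had 1774 bp in hTBLC and 843 bp in Primed with pileups of 117 and 71, and MIR8072 had 985 bp and 2157 bp with 75 and 83. The strongest signal of any broad locus was inside PCBD2, 21371 bp from its start, with pileups of 1487 in hTBLC and 968 in Primed over 2042 bp and 1931 bp, a ratio of 1.40 (1.29 to 1.52). The next was inside KIAA0825, with 559 and 329. Both were picked after their values were seen. Their sequence was not analysed here, and whether reads of near-identical sequence elsewhere, the mitochondrial genome included, were placed there was not tested, so these pileups may not measure open chromatin.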

How the data were processed

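Accessibility was measured by ATAC-seq in 1 hTBLC and 1 Primed library. The submitters' processing notes name Bowtie2, Picard, MACS2 and build hg38. Not given in the sources used here are the read shift, the treatment of duplicates and mitochondrial reads and the calling threshold. The authors deposited 1 peak list per library, with start, end, summit offset, fold, −log10 p, −log10 q and a score. The score in the authors' lists is capped and was not used. The fold ratio deposited by the authors is summit over local background, and it was solved together with the deposited −log10 p for a whole pileup, taking fold as (pileup + 1)/(background + 1) and p from the upper tail of a Poisson distribution. A whole number was found for all but 1 hTBLC peak, within 0.001 in −log10 p or 0.002% of large values. Total read numbers were not analysed, so depth is known from the background alone.

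Lines of one region share the same start and end in the deposited lists: merging joined 0 regions of different bounds. So each broad region was a single call by the authors. All had several summits except 2 hTBLC regions with 1 summit. How the calling threshold and depth set these widths was not tested. Covered width is the bp of a library's regions in a locus. RefSeq tables of GRCh38.p14 gave genes, 22131 starts of 15811 of 19970 coding genes, and promoter sequences; for the other genes either end within 1 kb was used. hg38 has the same primary coordinates. Shares have Wilson 95% intervals, and ratios of pileups exact binomial ones. Merging, loci and pileups were tested on simulated data.

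Named are the 10 widest regions and the 10 with most summits per library, the 10 largest gains and losses of width, the 5 highest and lowest ratios, regions with none opposite, and list members broad in one library or widest in their list; some are given as counts, and 1 is not reported here. The regions and lists were chosen with earlier results of these data known. Python 3.11.15, pandas 2.3.3 and scipy 1.17.1 were used.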

Additional observations from a re-analysis of the deposited data

How the results depend on the processing

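No paired analysis was possible because each group has 1 library, and no replicate could be left out. A −log10 p floor common to both lists (2.83), leaving out chromosome X, gene windows of 0, 500 and 2500 bp and reciprocal overlap of 50% left every count within 1.5-fold and every share and median within its counting interval. Of 153 values recomputed, 104 stayed so and 49 moved, most of them with the width minimum, which takes a different class of regions.

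With a minimum of 1000 bp, 10854 hTBLC and 11448 Primed regions were kept. Of these 62.2% and 59.0% met a region of that width in the other list, 46.9% and 46.9% were at a coding start, and they had 2.79 and 2.90 summits. Wider in hTBLC were 1275 loci and wider in Primed 1572, and pileups were higher at 2313 and lower at 2617. Genes numbered 1364 in hTBLC alone, 1775 in Primed alone and 5326 in both, and list genes other than ZNF 148 and 142 (22 and 14 at 1500 bp). With a minimum of 2000 bp, 145 and 174 regions remained, 29.7% and 24.7% met one of that width, 74.5% and 69.0% were at a coding start, and they had 5.25 and 5.47 summits. The median log2 width ratio was -0.041, with 2 loci wider in hTBLC and 16 in Primed, and pileups were higher at 26 and lower at 25. Genes numbered 96 in hTBLC alone, 115 in Primed alone and 48 in both, and list genes 2 and 3.

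Keeping summits with a −log10 q of at least 5 gave 3.41 summits per hTBLC and 3.41 per Primed region and 132 loci wider in hTBLC; with at least 10 these were 2.69, 2.63 and 176. The order of the summit means thus turned. Merging within 100 bp gave 49.1% of Primed regions meeting a broad hTBLC region and a median log2 width ratio of -0.0093. A fold of 2 left 25 loci wider in hTBLC and 57 in Primed. Taking the widest single region gave 343 and 468, since a locus split into several regions then counts as narrower. The median log2 pileup ratio was 0.17 without scaling and -0.036 with the sum over summits. At 56 named loci, 460 of the recomputed log2 ratios kept their side of 1.5-fold, 33 did not, and 1 reversed: NCKAP5, where the sum over summits gave 0.096.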
